A study of Mus musculus with 40 samples.

Results

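The comparison is that of bone marrow-derived macrophages (BMDMs) of Cpeb4-/- and WT mice after 3 hr of LPS. It took the 8 libraries whose labels give this time point, 4 of each genotype, out of 40 libraries, and the 13083 of 27179 genes whose mean value over these 8 libraries was at least log2 of 5. The Cpeb4-/- libraries came from mice 2, 3, 55 and 62, which carried the knockout in all tissues, and the WT libraries from mice 25, 69, 87 and 88. All were adult males of a mixed C57BL/6J and 129 background. Marrow cells were grown into macrophages with M-CSF from L-cell medium, and both genotypes received 10 ng/ml LPS of E. coli 0111:B4. The values are rlog values, a log2 scale corrected for library size on which the differences of weakly expressed genes are shrunken. Each genotype had 2 mice in batch 1 and 2 in batch 2, and came from 3 cages, none of which held the other genotype, so cage and genotype cannot be told apart. In bulk RNA, fewer cells of a type and less RNA per cell cannot be told apart either.

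LPS binds CD14 and TLR4 on macrophages and starts a wave of cytokine and chemokine transcription through NF-kB and AP-1. A second arm through TRIF and IRF3 induces interferon beta, which acts back on the cells and switches on the interferon-stimulated genes. CPEB4 binds cytoplasmic polyadenylation elements (CPEs) in the 3′UTR of mRNAs and favours a longer poly(A) tail, whereas TTP, encoded by Zfp36, binds AU-rich elements (AREs) and recruits deadenylases. A genotype difference in RNA level can therefore reflect transcription, decay or both, and RNA-seq at 1 time point does not part them.

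Cpeb4 RNA itself did not separate the genotypes at 3 hr. Its rlog values were 9.15, 9.47, 9.18 and 9.02 in the libraries labelled Cpeb4-/- (mice 2, 3, 55 and 62, the order used throughout) and 9.26, 10.06, 8.82 and 10.88 in WT (mice 25, 69, 87 and 88). WT mouse 87 lay below all 4 libraries labelled Cpeb4-/-, and the difference was −0.55 (SE 0.35, limma adjusted p = 0.36; two-sided exact permutation p = 0.34, n = 4 and 4, smallest possible p = 0.029). Without WT mouse 88 the difference at 3 hr was −0.18. At the other times, with all mice, it was −0.24 (untreated), 0.37 (1 hr), −1.27 (6 hr) and −0.31 (9 hr). Of these, the difference at 6 hr alone had a limma adjusted p under 0.05 (0.0011). Reads over the deleted part of the gene were not analysed here, so genotypes were taken as labelled. Among its paralogs, Cpeb2 was 9.69, 9.78, 9.58 and 9.53 in Cpeb4-/- and 9.03, 9.18, 9.01 and 9.24 in WT. Cpeb2 thus rose by 0.53 (SE 0.07, limma adjusted p = 0.0079), with no overlap between genotypes, and this call held in all 8 fits with 1 library left out. Cpeb3 differed by 0.23 (limma adjusted p = 0.17), with WT mouse 88 at 8.36 inside the Cpeb4-/- range. Without that mouse Cpeb3 was higher by 0.33 (limma adjusted p = 0.013). Cpeb1 differed by 0.01.

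In all, 481 genes (3.68%) differed at an adjusted p under 0.05, of which 237 (1.81%) rose and 244 (1.87%) fell in Cpeb4-/-. These are the genes described as called below. Most changes were modest: the median called difference was 0.39 in absolute value on the log2 scale, and 28 called genes changed by at least 1, of which 15 rose and 13 fell. The 4 values of one genotype lay wholly above or below those of the other for 475 of the 481 called genes. Such non-overlap was found for 1783 of all tested genes (13.6%), 922 higher (7.05%) and 861 lower (6.58%). All 481 differences had the same sign in batch 1 and in batch 2. For genes without overlap this is fixed in advance, so it is no independent check of the calls.

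One library stood apart. On the first principal component, which held 41.9% of the variance, WT mouse 88 lay at −5.22 beside the Cpeb4-/- libraries (−15.99 to −6.12), while the other WT libraries lay at 3.56 to 24.39. Without it, 1417 genes were higher (10.8%) and 1169 lower (8.94%), and these included all 481. At an unadjusted p under 0.05 there were 3067 genes (23.4%) with all libraries, the share to read such counts against. Most list counts below are followed by those without this library, to be read against the 10.8% higher and 8.94% lower over all genes tested. WT mouse 88 was singled out on these same values, as the WT library nearest Cpeb4-/-. Counts without it are therefore no independent support and may be too high. Removing 1 of the other libraries left 76 (Cpeb4-/- mouse 3 removed) to 417 called genes. With all 40 libraries in one fit and the mouse as replicate block, 1406 genes were called, 687 higher and 719 lower, and 464 of the 481 were among them. Of the 120 called genes named below by the rule, 34 kept their call in every fit with 1 library left out, none changed direction, and the adjusted p reached 0.155 at most.

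The cells carried the macrophage programme in both genotypes. All 12 macrophage markers were tested; Cd14 and Lyz2 fell and none rose. The summed level of the 12, as log2 of the sum, was 18.9 to 19.1 in Cpeb4-/- and 19.38 to 19.41 in WT, without overlap, and Lyz2 was the most abundant of them. Few markers were tested for T and NK cells (2 of 11), B cells (2 of 7), mast cells and basophils (3 of 10) and erythroid cells and megakaryocytes (1 of 11). Most were tested for the lists of monocytes (5 of 6, none called), osteoclasts (7 of 9), dendritic cells (7 of 11) and neutrophils (7 of 13). Cd3e, Ly6g and Siglech were under the expression floor, Tpsab1 and Hba-a1 were listed at 0 in all 8 libraries, and 1 of 11 stromal markers was tested. Zbtb46, a dendritic cell marker, Mmp8, a neutrophil marker, and Ctsk, an osteoclast marker, rose. Each was the single called member of its list, out of 7 tested. The summed marker levels of dendritic cells (13.2 to 13.6 in Cpeb4-/-, 13.3 to 13.99 in WT) and of neutrophils (11.99 to 12.14 and 11.94 to 12.06) overlapped, and those of osteoclasts (12.41 to 12.53 and 12.25 to 12.43) just overlapped. Each sum is weighted to its most abundant marker, Bst2 for dendritic cells, Csf3r for neutrophils and Atp6v0d2 for osteoclasts. It thus says little of the other markers of these cells. The part of such cells in the results was not tested.

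The largest fall was that of Slc13a3, the sodium-dependent dicarboxylate transporter (chromosome 2 of mm10, 165405295 to 165473197). It had rlog values of 5.64, 5.26, 5.39 and 5.57 in Cpeb4-/- and 8.33, 9.11, 8.29 and 8.43 in WT. The difference was −3.07 (SE 0.17, limma adjusted p = 1.5e-05), a level 0.119 times that of WT. Siglece, an inhibitory sialic acid-binding receptor of myeloid cells, was 5.98, 6.04, 6.27 and 6.11 against 8.15, 7.94, 8.40 and 8.26, a fall by 2.09 (SE 0.11, limma adjusted p = 1.5e-05). Serinc3, a membrane protein of the serine incorporator family, was among the abundant genes, at 12.98, 12.85, 12.89 and 12.90 against 14.19, 14.27, 14.16 and 14.60. Its fall of 1.40 (SE 0.09) and those of Slc13a3 and Siglece were far outside the spread of either genotype.

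**Figure D1:**
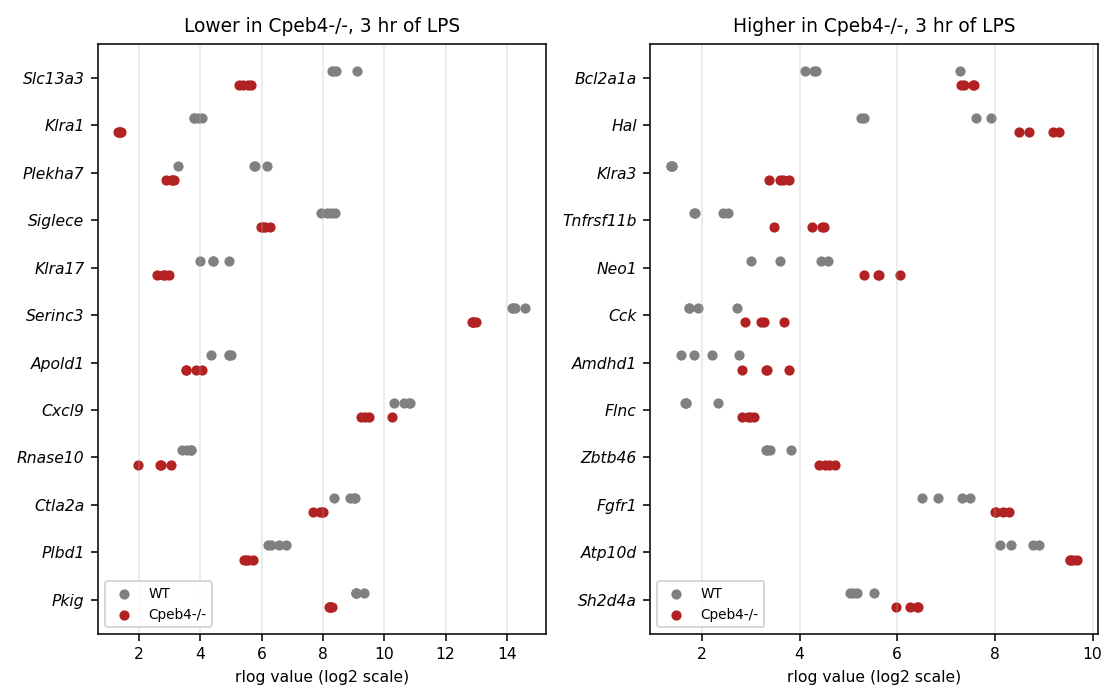
Rlog values (log2 scale, x axis) of the 12 largest falls (left) and 12 largest rises (right) among named genes called at 3 hr, 1 point for each of 4 WT (grey) and 4 Cpeb4-/- (red) libraries. Slc13a3 shows the widest gap (−3.07), whereas 1 WT library lies close to Cpeb4-/- for Plekha7 (3.28) and Bcl2a1a (7.28).

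The other large falls were in Klra1 (−2.52) and Klra17 (−1.64), lectin-like receptors of the Ly49 family, Plekha7 (−2.20), a junctional protein, Apold1 (−1.06), Rnase10 (−0.97), Ctla2a (−0.94), a cysteine protease inhibitor, Plbd1 (−0.92) and Pkig (−0.90), an inhibitor of protein kinase A. Plekha7 rested on the WT libraries unevenly: mouse 87 had 3.28 where the other WT mice had 5.76 to 6.16, and the call was lost in 6 of the 8 fits with 1 library left out. Rnase10 also lost its call in 6 of these fits and Apold1 in 3, whereas Klra1, Klra17, Ctla2a, Plbd1 and Pkig kept theirs in all. Klra1 was at 1.33 to 1.42 in Cpeb4-/- and 3.78 to 4.04 in WT, while its neighbour Klra3 was the reverse, at 3.37 to 3.78 in Cpeb4-/- and 1.36 to 1.38 in WT. These receptor genes are near-identical copies, so that reads may be split or exchanged among them and the counts of each are uncertain. Among predicted genes, 13 of the called falls and 13 of the called rises, the largest falls were an unnamed locus with Entrez identifier 100505224 (−2.33, with WT mouse 87 at 1.96 against 4.59 to 4.99), BC064078 (−2.27) and BC035044 (−1.29). The largest rises among them were Gm6334 (2.06), 1700071M16Rik (0.99) and Tmem181b-ps (0.90).

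The largest rise, Bcl2a1a, an antiapoptotic BCL2 relative, was 7.31, 7.37, 7.55 and 7.57 in Cpeb4-/- and 4.33, 4.30, 4.11 and 7.28 in WT. WT mouse 88 thus stood with the Cpeb4-/- libraries, the difference was 2.45 with all mice (SE 0.58, limma adjusted p = 0.046) and 3.20 without that mouse, and the call was lost in the 7 fits that left out any other library. Bcl2a1a has near-identical copies, so its level is uncertain. Hal, histidine ammonia-lyase, was 9.31, 9.18, 8.48 and 8.70 against 7.92, 5.27, 7.61 and 5.32, a rise of 2.39 (SE 0.56, limma adjusted p = 0.046) in which WT mice 25 and 87 lay well above mice 69 and 88. Amdhd1, which acts later in histidine breakdown and lies next to Hal on chromosome 10 (93523338 to 93540111, Hal at 93488768 to 93516761), rose by 1.22. Its WT values of 2.76, 1.57, 1.85 and 2.21 were highest in mouse 25, as those of Hal were. Hal and Amdhd1 each lost the call in 5 of the 8 fits with 1 library left out.

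Tnfrsf11b, which encodes the RANKL decoy receptor osteoprotegerin, was 4.25, 4.49, 4.45 and 3.48 in Cpeb4-/- and 1.86, 2.53, 2.43 and 1.85 in WT, a rise of 2.00 (SE 0.26, limma adjusted p = 0.0051). The netrin receptor gene Neo1 rose by 1.74, Cck, a peptide hormone gene, by 1.23 and Flnc, an actin cross-linker, by 1.12. The growth factor receptor gene Fgfr1 rose by 1.08, and Atp10d and Sh2d4a by 1.06 each. Atp10d, of the phospholipid flippase family, is annotated as a transcribed pseudogene in the mouse reference. Zbtb46, a zinc finger transcription factor of classical dendritic cells, was 4.53, 4.59, 4.40 and 4.72 against 3.83, 3.39, 3.30 and 3.34, a rise of 1.10 (SE 0.15). The values of these 8 genes did not overlap between genotypes, which was a condition for naming them here. The calls of Tnfrsf11b, Zbtb46, Atp10d and Sh2d4a held with any 1 library left out.

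Chemokines moved in both directions. Of 25 genes tested in their list, which also holds the receptor gene Ccrl2, 3 rose and 4 fell, Ccrl2 among the latter. Without WT mouse 88, 3 rose and 11 fell. The median difference over the 25 was −0.22, against 0.01 over all genes tested. The 3 that rose, Cxcl1, Cxcl3 and Cxcl5, are ligands of CXCR2 that attract neutrophils. Cxcl3 was 12.48, 12.79, 12.70 and 12.56 in Cpeb4-/- and 11.75, 12.16, 11.74 and 11.66 in WT, a rise of 0.81 (SE 0.11, limma adjusted p = 0.0053) or 1.75-fold. Cxcl1 was 13.39, 13.66, 13.62 and 13.45 against 13.16, 12.92, 13.19 and 12.96, a rise of 0.47 (SE 0.08, limma adjusted p = 0.017). Cxcl5, at lower level, rose by 0.94 (SE 0.21), and WT mouse 87 was the lowest at 2.75. Cxcl2, a further ligand of CXCR2, was 15.02, 15.26, 15.33 and 15.14 against 14.94, 15.18, 15.07 and 14.88, which overlapped (difference 0.17, limma adjusted p = 0.24).

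The chemokines that fell included Ccl2 and Ccl7, monocyte attractants acting on CCR2. Ccl2 was 13.26, 13.14, 13.36 and 12.95 in Cpeb4-/- and 13.89, 13.38, 13.94 and 13.63 in WT, a fall of 0.53 (SE 0.12, limma adjusted p = 0.045). Ccl7 was 12.52, 12.19, 12.37 and 12.002 against 13.28, 12.63, 13.36 and 12.79, a fall of 0.74 (SE 0.16, limma adjusted p = 0.039). For both, WT mouse 69 came closest to the Cpeb4-/- values. Cxcl9, an interferon gamma-inducible ligand of CXCR3, fell most, from 10.81, 10.31, 10.83 and 10.63 in WT to 9.50, 9.23, 10.24 and 9.38 in Cpeb4-/-. Its difference was −1.06 (SE 0.19, limma adjusted p = 0.020), and Cpeb4-/- mouse 55 lay just under the lowest WT library. Ccrl2, an atypical receptor that binds chemerin, fell by 0.30. The calls of Ccl2 and Ccl7 were lost in 6 of the 8 fits with 1 library left out and that of Cxcl9 in 4, with adjusted p up to 0.14, whereas Cxcl3 kept its call in all 8 and Cxcl1 lost it without Cpeb4-/- mouse 3 (adjusted p = 0.067). Among the chemoattractant receptors, Cx3cr1 (−0.39), which binds fractalkine, and C5ar1 (−0.21), the complement C5a receptor, fell, and none of the 14 tested rose, whereas 1 rose and 3 fell without WT mouse 88.

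**Figure D2:**
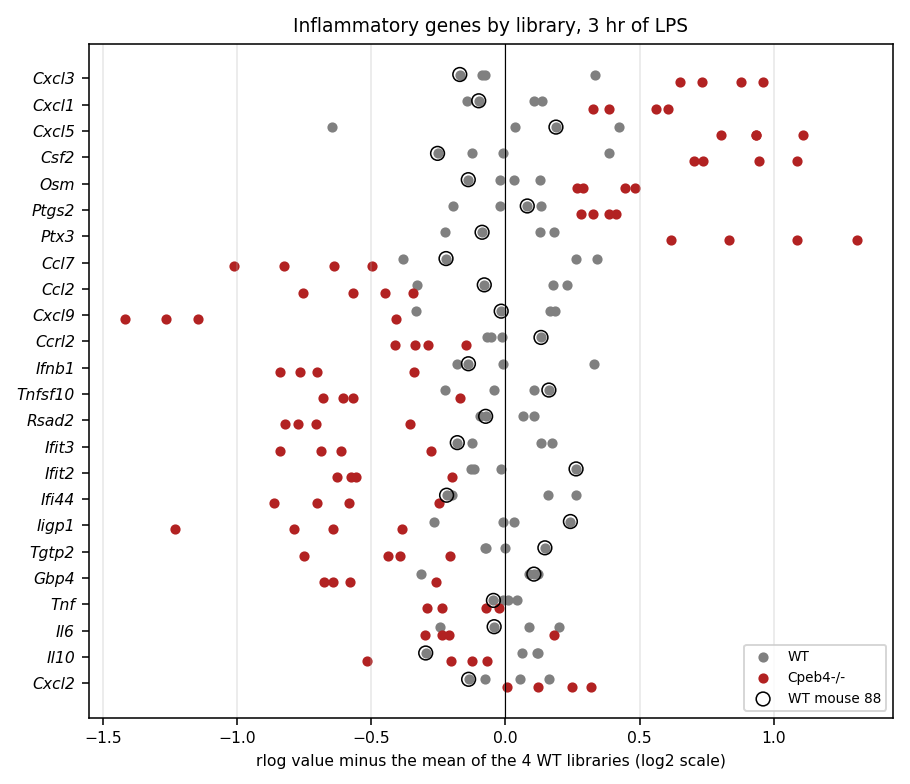
Rlog value of each library minus the mean of the 4 WT libraries (x axis, log2 scale) for inflammatory genes (rows), with WT in grey, Cpeb4-/- in red and WT mouse 88 circled. Cxcl3, Cxcl1, Csf2 and Ptx3 lie to the right of WT, Ccl2, Ccl7, Cxcl9, Ifnb1 and the interferon-stimulated genes to the left, and Tnf, Il6, Il10 and Cxcl2 overlap with it.

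Of 31 cytokine genes tested, Csf2 and Osm rose and Ifnb1 and Tnfsf10 fell. Without WT mouse 88, 3 rose and 8 fell. Csf2, which encodes GM-CSF, was 7.11, 7.49, 7.35 and 7.14 in Cpeb4-/- and 6.40, 6.29, 6.80 and 6.16 in WT, a rise of 0.87 (SE 0.14, limma adjusted p = 0.013). Osm, oncostatin M of the IL-6 family, rose by 0.37. Tnfsf10, the death ligand TRAIL, fell by 0.51, although Cpeb4-/- mouse 55 at 10.24 was above WT mouse 69 at 10.18. The main LPS cytokines did not pass the test. Tnf was 15.58, 15.80, 15.85 and 15.64 in Cpeb4-/- and 15.87, 15.92, 15.88 and 15.83 in WT (difference −0.16, SE 0.07, limma adjusted p = 0.19). Il6 differed by −0.14 (adjusted p = 0.47), Il1a by 0.13 (adjusted p = 0.38) and Il10 by −0.23 (adjusted p = 0.25), where WT mouse 88 at 11.32 lay apart from the other WT mice (11.68 to 11.74).

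In the interferon arm every called gene of its lists fell. Ifnb1, interferon beta, was 6.90, 6.96, 7.32 and 6.83 in Cpeb4-/- and 7.65, 7.48, 7.99 and 7.53 in WT, a fall of 0.66 (SE 0.13, limma adjusted p = 0.031) that left the genotypes apart by the gap from 7.32 to 7.48. Of 58 interferon-stimulated genes tested, 6 fell and none rose, 52 had a lower mean in Cpeb4-/-, and the median was −0.16. Without WT mouse 88, 15 fell and 1 rose, against 8.94% and 10.8% over all genes tested. With the replicate block over all 40 libraries 18 fell, against 719 of 13083 over all. The 6 were Rsad2, Ifit1, Ifit2, Ifit3, Ifi44 and Cmpk2. Rsad2, the antiviral enzyme viperin, was 16.48, 16.37, 16.83 and 16.41 against 17.29, 17.09, 17.25 and 17.11, a fall of 0.66 (SE 0.10, limma adjusted p = 0.011) that held in all 8 fits with 1 library left out. Ifit3, which with Ifit1 and Ifit2 binds viral RNA, was 12.78, 12.63, 13.19 and 12.86 against 13.60, 13.35, 13.64 and 13.29, a fall of 0.60 (SE 0.12). In these genes Cpeb4-/- mouse 55 was the highest of its genotype. Among 18 interferon-inducible GTPases of the GBP and IRG families, which attack the vacuoles of intracellular microbes, Iigp1 (−0.76), Gbp4 (−0.54) and Tgtp2 (−0.45) fell, none rose and 16 had a lower mean. Of these GTPases 5 fell and none rose without WT mouse 88. IRG genes have near-identical copies, so Iigp1 and Tgtp2 are uncertain.

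Promoters of genes in these groups are shown to place the known binding motifs. A RefSeq promoter of GRCm38.p6 (250 bases before to 50 after the start) was matched for 10094 tested genes. The interferon-stimulated response element (ISRE), searched as GAAANNGAAA on both strands, stood in 400 of these (3.96%), in 21 of 45 promoters of the interferon list (46.7%) and in 14 of 183 promoters of called falls (7.65%). The list and the motif share their history, since interferon-stimulated genes are known by this element. Windows around the matches follow for 3 of the 6 genes that fell, 5′ to 3′ on the strand of the gene with the matches in capitals. They are chr12:26456548-26456587 (minus strand) for Rsad2, chr19:34640770-34640828 (plus) for Ifit1 and chr19:34583358-34583431 (plus) for Ifit3.
Rsad2: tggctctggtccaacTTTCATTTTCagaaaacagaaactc
Ifit1: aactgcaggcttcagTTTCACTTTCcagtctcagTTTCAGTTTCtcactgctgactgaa
Ifit3: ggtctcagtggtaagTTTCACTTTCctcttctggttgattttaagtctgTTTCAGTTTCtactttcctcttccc

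In all 3 genes the element lies on the strand opposite to the gene as written, and Ifit1 and Ifit3 hold 2 matches each. The windows of Ifit2, Ifi44 and Cmpk2 had no match to these letters. A kappaB motif, searched as GGGNNTTTCC on both strands, stood in 214 of the 10094 promoters (2.12%) and in 4 of 17 chemokine promoters (23.5%). Of the chemokines that rose, Cxcl1 (chr5:90891141-90891198, plus strand) and Cxcl3 (chr5:90786013-90786052, plus strand) held it, with matches again in capitals.
Cxcl1: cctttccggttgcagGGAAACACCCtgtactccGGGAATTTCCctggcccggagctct
Cxcl3: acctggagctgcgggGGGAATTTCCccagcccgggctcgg

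The 3′UTRs were read in the same way, as the longest 3′UTR of each gene in GENCODE M21. A CPE, searched as TTTTAT or TTTTAAT on the mRNA strand, was present in 72.1% of 226 called rises with a 3′UTR, 56.4% of 236 called falls and 61.7% of 11993 tested genes. The density was 1.64, 1.04 and 1.32 CPEs per kilobase. An ARE core, ATTTA, was present in 78.8%, 66.1% and 69.1%. The median 3′UTR length was 1190 bases for rises, 1080 for falls and 1136 for all, and the median GC content 43.7%, 46.4% and 44.5%, so the falls had more GC-rich 3′UTRs and the part of base composition in the difference was not tested. With 3′UTRs divided into 4 equal classes by length, the CPE share was 35.6% in rises and 37.3% in falls for the shortest class, 64.6% and 40.3% for the next, 84.6% and 71.0% for the third and 98.0% and 83.3% for the longest. Over all tested genes the share was 25.1%, 52.5%, 76.8% and 92.4%, from the shortest class to the longest. Rises thus had a higher share than falls in every class but the shortest. Rises lay above all tested genes in each class. Falls lay above them in the shortest class and below them in the others. This is a description of the called genes, with no test.

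Factors of mRNA decay held 3 calls. Of 37 tested, Tob2, Zfp36l1 and Btg1 rose and none fell, the median was 0.13, and 31 had a higher mean in Cpeb4-/-. Without WT mouse 88, 16 rose and 1 fell. Tob2 and Btg1 are adaptors of the CCR4-NOT deadenylase, and Zfp36l1 is a TTP paralog that binds AREs. Tob2 was 10.76, 10.84, 10.77 and 10.80 in Cpeb4-/- and 10.18, 10.48, 10.18 and 10.46 in WT, a rise of 0.47 (SE 0.08, limma adjusted p = 0.013). Zfp36l1 rose by 0.36 and Btg1 by 0.27, and each lost its call in 6 or 7 fits with 1 library left out. Zfp36 overlapped between genotypes, at 14.73, 14.67, 14.78 and 14.91 against 14.77, 14.81, 14.75 and 14.59 (difference 0.04, adjusted p = 0.73), and Elavl1, which encodes the RNA-stabilising protein HuR, differed by 0.05.

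Of 32 feedback regulators that restrain the LPS response, Trib1 and Dusp16 rose and Pdlim2 fell, and 4 rose and 6 fell without WT mouse 88. Trib1, a pseudokinase that guides the degradation of C/EBP factors, was 10.94, 11.09, 10.91 and 10.95 in Cpeb4-/- and 10.33, 10.58, 10.40 and 10.54 in WT, a rise of 0.51 (SE 0.07, limma adjusted p = 0.0053). Dusp16, a JNK and p38 phosphatase, was 12.19, 12.25, 12.16 and 12.16 against 11.76, 11.74, 11.70 and 11.85, a rise of 0.43 (SE 0.05, limma adjusted p = 0.0018). Both held in all 8 fits with 1 library left out. Pdlim2, a nuclear ubiquitin ligase for the NF-kB subunit p65, fell by 0.27. Tnfaip3 (−0.04), Socs3 (0.10), Dusp1 (0.14) and Il1rn (−0.02) had adjusted p of 0.24 to 0.89, and Socs1 differed by −0.38 (limma adjusted p = 0.073).

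Among 41 transcription factors of the response, Irf4, Bhlhe40, Egr2, Klf2 and Myc rose and Egr1, Jun and Irf5 fell, and 9 rose and 11 fell without WT mouse 88. Irf4, a factor of alternatively activated macrophages and dendritic cells, was 6.54, 7.07, 6.60 and 6.96 in Cpeb4-/- and 5.33, 6.00, 5.84 and 5.87 in WT, a rise of 1.03 (SE 0.17, limma adjusted p = 0.013) or 2.05-fold. Bhlhe40, a repressor of Il10, rose by 0.52, Egr2 by 0.49, Klf2 by 0.46 and Myc by 0.34. Jun, an AP-1 subunit, was 10.77, 10.71, 10.88 and 10.79 against 11.09, 11.02, 11.06 and 11.16, a fall of 0.30 (SE 0.05, limma adjusted p = 0.017), Egr1 fell by 0.35 and Irf5, which drives inflammatory cytokine genes, by 0.27. Of 44 genes of TLR4 signalling none rose, and the LPS coreceptor gene Cd14 (−0.30), Tlr2 (−0.22) and Mapk3, which encodes ERK1 (−0.19), fell. The count was not one-sided in the fit without WT mouse 88, where 7 rose and 5 fell, though that fit is no independent check. Each of these 3 lost its call in 6 or 7 of the 8 fits with 1 library left out.

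**Figure D3:**
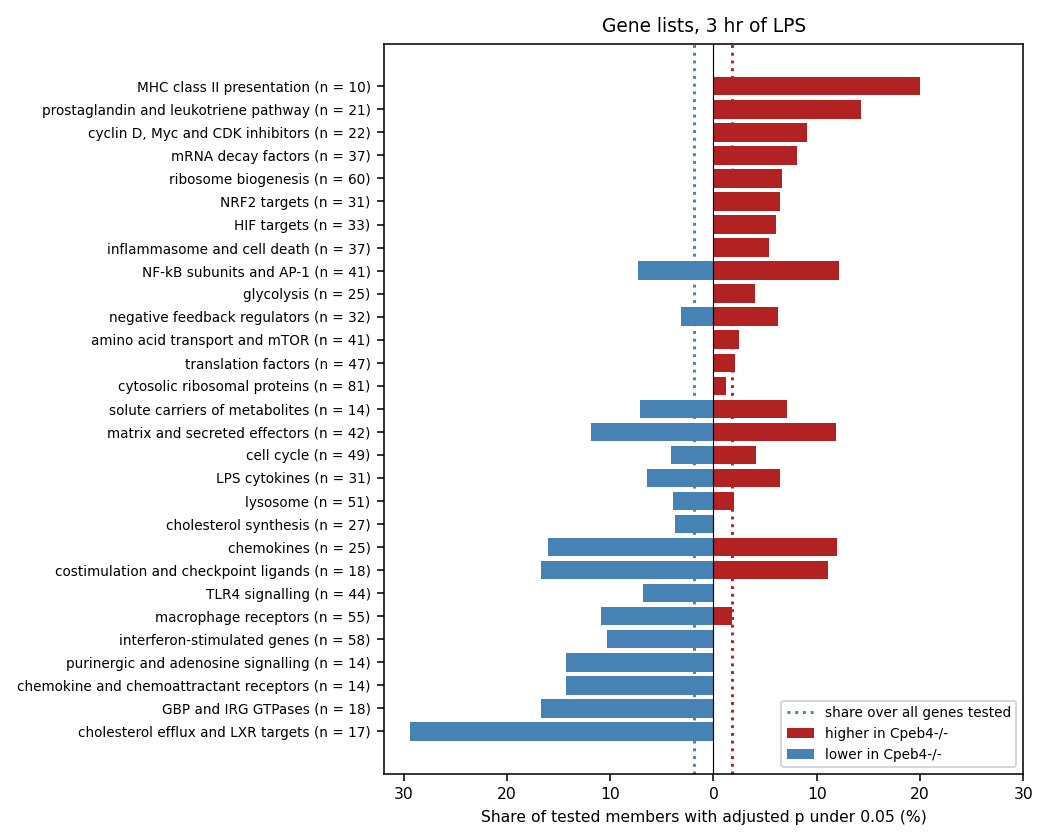
Share of the tested members of each list (rows, n tested in brackets) called higher (red, right) or lower (blue, left) in Cpeb4-/- at 3 hr, in percent, for lists with at least 1 called gene; dotted lines give the shares over all genes tested (1.81% and 1.87%). Interferon, GBP and cholesterol efflux lists have bars to the left only, and mRNA decay, ribosome biogenesis and prostaglandin lists to the right only.

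Among genes of cholesterol transport 5 fell. Of 17 in the list of efflux and LXR targets, Apoc2, Apoc1, Apoe, Ch25h and Plin2 fell and none rose, though the median over the 17 was −0.03. Leaving out WT mouse 88, 3 rose and 6 fell. Apoe, the main apolipoprotein that macrophages secrete, was 17.06, 17.08, 17.16 and 17.07 in Cpeb4-/- and 17.76, 17.80, 17.63 and 17.21 in WT, a fall of 0.51 (SE 0.12, limma adjusted p = 0.042). WT mouse 88 was the closest to Cpeb4-/-, and the difference was −0.64 without it. Apoc2, a cofactor of lipoprotein lipase, fell by 0.79 and Apoc1 by 0.76. These 3 genes are neighbours on chromosome 7, from 19671579 (Apoc2) to 19701310 (Apoe). Ch25h, which makes 25-hydroxycholesterol, fell by 0.36, and Stard4, a sterol carrier, by 0.34.

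Secreted effectors of macrophages shifted in both directions, with 5 of 42 higher and 5 lower, and 12 higher and 9 lower without WT mouse 88. Ptx3, a soluble pattern recognition protein, was 9.30, 9.99, 9.77 and 9.52 in Cpeb4-/- and 8.46, 8.87, 8.81 and 8.60 in WT, a rise of 0.96 (SE 0.14, limma adjusted p = 0.0091). Mmp12, macrophage elastase, was 15.68, 15.90, 15.85 and 15.66 against 15.15, 15.39, 15.15 and 15.32, a rise of 0.52 (SE 0.08), and Mmp8 rose by 0.73. The lysozyme genes fell: Lyz2 was 18.15, 17.80, 18.06 and 17.95 against 18.52, 18.48, 18.64 and 18.53, by 0.55 (SE 0.08, limma adjusted p = 0.011), and Lyz1 fell by 0.71. Both genes are close copies, so reads may pass between them. Spp1, osteopontin, fell by 0.54, and C1qc, a chain of complement C1q, by 0.35. The calls of Ptx3, Mmp12, Lyz1, Lyz2 and Spp1 held in all 8 fits with 1 library left out.

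Of 55 macrophage surface receptor genes tested, 6 fell and 1, Clec1b (0.89), rose, and 13 fell and 5 rose without WT mouse 88. Beside Siglece the falls were Tyro3 (−0.61), which recognises apoptotic cells, the IgG receptor Fcgr4 (−0.56), the tetraspanin Cd37 (−0.44), Clec12a and Clec4d. Cd37 was 11.70, 11.74, 11.77 and 11.81 in Cpeb4-/- and 12.30, 12.13, 12.24 and 12.12 in WT (limma adjusted p = 0.0034). The costimulatory ligands of CD28 fell, Cd80 by 0.50 and Cd86 by 0.38, as did Vsir, which encodes the checkpoint protein VISTA, by 0.23. Cd200 (0.51) and Tnfsf4 (0.39), the OX40 ligand, rose. Of the 18 genes of this list 3 rose and 4 fell without WT mouse 88. The MHC class II genes H2-Aa and H2-Eb1 rose by 0.53 and 0.51, 8 of 10 tested had a higher mean, and 4 rose and none fell without WT mouse 88. H2-Aa was 12.25, 12.50, 12.59 and 12.46 against 11.76, 11.71, 12.21 and 11.99, so that Cpeb4-/- mouse 2 lay just above WT mouse 87. None of 22 genes of MHC class I presentation was called by limma, 11 had an unadjusted p under 0.05 (23.4% over all genes tested), 21 had a lower mean, and 11 were lower and 1 higher without WT mouse 88. The purinergic receptor genes P2ry6 (−0.33) and P2rx4 (−0.26), which respond to UDP and ATP, fell, and 3 of the 14 tested in their list fell without WT mouse 88.

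In the prostaglandin pathway 3 of 21 genes rose and none fell, but 5 rose and 5 fell without WT mouse 88. Ptgs2, the inducible cyclooxygenase COX-2, was 14.998, 15.13, 15.10 and 15.04 in Cpeb4-/- and 14.70, 14.85, 14.52 and 14.80 in WT, a rise of 0.35 (SE 0.07, limma adjusted p = 0.031). Pla2g7, the acetylhydrolase of platelet-activating factor, rose by 0.63 (SE 0.10, limma adjusted p = 0.014), and Ptgir, the prostacyclin receptor, by 0.50. Metabolic lists held few calls. The glucose transporter gene Slc2a3 (0.37) and the HIF targets Ddit4 (0.65), an inhibitor of mTORC1, and Adm (0.51), adrenomedullin, rose, as did Nfe2l2 (0.27), which encodes NRF2, and its target Nqo1 (0.44). Leaving out WT mouse 88, 2 rose and 2 fell among 25 glycolysis genes, 7 and 2 among 33 HIF targets and 5 and 3 among 31 NRF2 targets. Over all genes tested the shares in that fit were 10.8% higher and 8.94% lower. Hif1a differed by 0.21 (limma adjusted p = 0.21) and Vegfa by 0.19 (adjusted p = 0.23). No gene of the tricarboxylic acid cycle, autophagy, arginine metabolism, heat shock or unfolded protein lists was called by limma. At an unadjusted p under 0.05 these lists held 7 of 32, 9 of 34, 4 of 19, 4 of 15 and 13 of 39 genes, against 23.4% of all genes tested. In the fit without WT mouse 88, 5 rose and 2 fell in the first of these lists, 2 and 2 in the second and in the third, 1 and 1 in the heat shock list and 7 and 1 in the unfolded protein list.

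None of 68 genes of oxidative phosphorylation was called by limma and 16 had an unadjusted p under 0.05, a share near the 23.4% of all genes tested. All 16 were lower, 66 had a lower mean in Cpeb4-/- (median −0.18), and 36 were called lower without WT mouse 88 (8.94% over all genes tested). With the replicate block over all 40 libraries 1 was called, against 1406 of 13083 over all. Of 60 ribosome biogenesis factors, Polr1b (0.38), a subunit of RNA polymerase I, Rrs1 (0.29), Wdr75 (0.27) and Dkc1 (0.25) rose and none fell. Of this list 18 did not overlap between genotypes, all higher (7.05% over all genes tested). With the replicate block 19 rose and none fell (687 and 719 of 13083 over all). Without WT mouse 88, 13 rose and 2 fell (10.8% and 8.94% over all). Wdr75, a factor of the small subunit, was 9.60, 9.67, 9.58 and 9.67 in Cpeb4-/- and 9.32, 9.41, 9.32 and 9.37 in WT. The 81 ribosomal protein genes had a median of −0.12 and 1 call, Rpl10a (0.39), and 13 were lower and 2 higher without WT mouse 88.

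Of 49 cell cycle genes 2 rose and 2 fell, 34 had a higher mean, and 14 rose and 5 fell without WT mouse 88. In a separate list of 22 genes of cell cycle entry 2 rose and none fell, and 4 rose and 1 fell without that mouse. Of these, Cdkn1b, which encodes the CDK inhibitor p27, was 11.52, 11.45, 11.44 and 11.41 in Cpeb4-/- and 11.00, 10.99, 11.11 and 10.97 in WT, a rise of 0.44 (SE 0.05, limma adjusted p = 0.0018) that held with any 1 library left out. Cyclin E1 (Ccne1) was 7.79, 7.67, 7.57 and 7.87 against 8.73, 8.13, 8.66 and 8.56, a fall of 0.79 (SE 0.12, limma adjusted p = 0.013). The replication licensing gene Cdt1 fell by 0.28, whereas the mitotic genes Cdc20 (0.38) and Bub1b (0.34) rose. Ctsk, a lysosomal collagenase of osteoclasts, rose by 0.68 (SE 0.08, limma adjusted p = 0.0019), and the lysosomal genes Laptm5 (−0.22) and Neu1 (−0.22) fell. Of 51 lysosomal genes these 3 were called, and 3 rose and 10 fell without WT mouse 88. Calls in other lists were Eif4a2 (0.25), a translation initiation helicase, Slc7a7 (0.25), an amino acid transporter, Slc39a14 (0.32), a zinc and iron transporter, and Bcl2l11 (0.29), which encodes the death protein BIM.

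Several of the strongest genes lie next to each other. Called genes were joined where they started within 1500000 bases of the next. On chromosome 2 from 163623273 to 167979385, 13 of 57 tested genes were called (22.8%, against 3.68% over all), 12 of them lower, among them Serinc3, Pkig, Slc13a3 and Ptpn1, a tyrosine phosphatase that restrains JAK signalling. On chromosome 6 from 128321140 to 130386874, 11 of 23 were called (47.8%), 9 lower, among them BC064078, BC035044, Cd69, Clec12a, Klra17 and Klra1, with Clec1b and Klra3 higher. Further along, from 134715468 to 136662303, 8 of 14 were called (57.1%), with Dusp16 and Cdkn1b higher and Apold1 and Plbd1 lower. On chromosome 14 from 50944303 to 52006247, 7 of 11 were called (63.6%), including the ribonuclease genes Rnase6 (higher) and Rnase10 (lower). These segments were chosen after the values were seen. Each starts and ends at a called gene, so its share is high by construction. Other segments found in this way had lower shares, down to 6.92% on chromosome 10 (9 of 130 genes). Within 10 Mb of Cpeb4 on chromosome 11 (21870104 to 41870104), none of 55 tested genes was called by limma at 3 hr. Of these, 9 had an unadjusted p under 0.05, a share under the 23.4% of all genes tested. At 6 hr, 10 genes of this window were called. With 3.68% called over all, few calls would be expected among 55 genes. The window was set by distance and not by calls, so its share cannot be compared with those of the segments. The mice are of a mixed background, and the part of strain sequence in these segments was not tested.

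**Figure D4:**
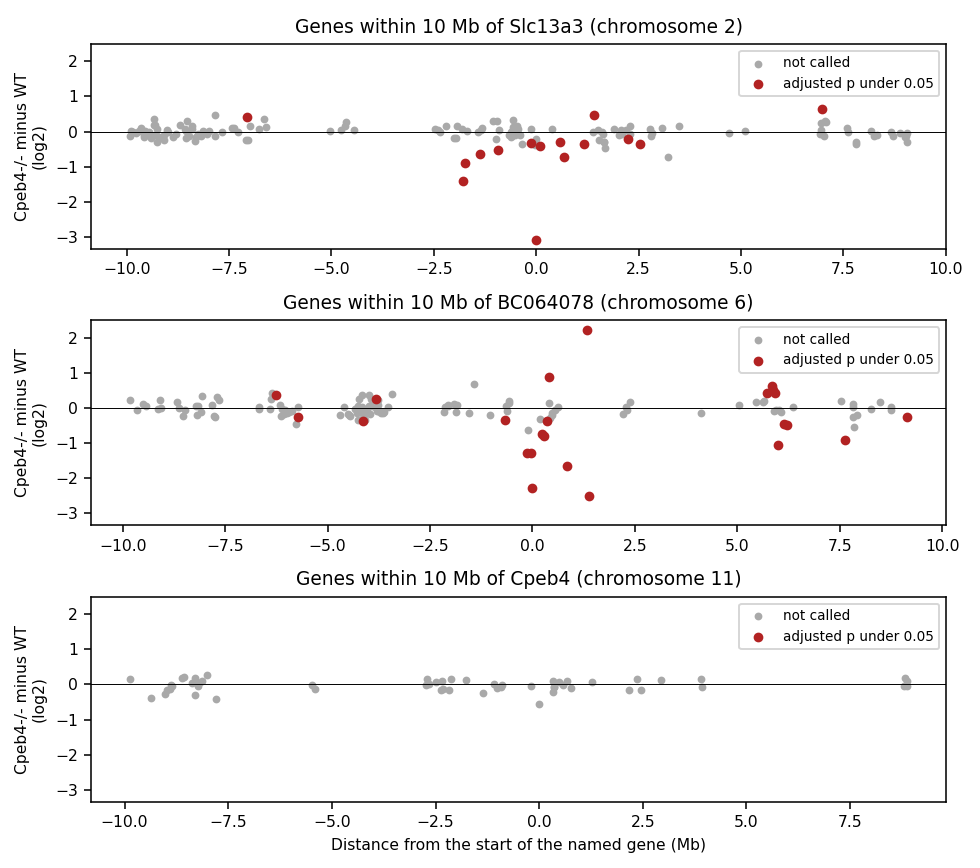
Difference between Cpeb4-/- and WT at 3 hr (y axis, log2) of the tested genes within 10 Mb of Slc13a3, BC064078 and Cpeb4, by distance from the start of that gene (x axis, Mb), with called genes in red. Called genes crowd near Slc13a3 (−3.07) and BC064078 (−2.27), and there is none near Cpeb4. Slc13a3 and BC064078 lie in segments chosen for their calls, so the panels are no even comparison.

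Some differences were called already in untreated cells and others were not. In untreated cells the difference of Slc13a3 was −2.04, that of Siglece −2.27 and that of Serinc3 −1.49. The difference of Cxcl3, in contrast, was 0.09 in untreated cells and went through 0.24 (1 hr), 0.81 (3 hr) and 1.80 (6 hr) to 1.51 (9 hr). Over the same series of times Csf2 differed by 0.19, −0.47, 0.87, −0.02 and −0.14, and Irf4 by 0.37, 0.62, 1.03, 0.22 and 0.35. For Ccl7 the values were −0.09, −0.67, −0.74, −0.28 and −0.16, for Ifnb1 0.12, −0.71, −0.66, 0.10 and −0.58, and for Rsad2 −0.16, −0.24, −0.66, −0.60 and −0.20. Slc13a3, Siglece and Serinc3 were called at all 5 times, Cxcl3 also at 6 and 9 hr, Rsad2 also at 6 hr, and Csf2, Irf4, Ccl7 and Ifnb1 at 3 hr alone. A call at one time and not at another is no test of the change between them. In the direct test of the change from 0 to 3 hr, described below, Slc13a3 passed (change −1.04, limma adjusted p = 0.037). Siglece, Serinc3, Cxcl3, Csf2, Irf4, Ccl7, Ifnb1 and Rsad2 did not. Cxcl3 passed from 3 to 6 hr (change 1.00, limma adjusted p = 0.048), whereas Slc13a3, Siglece, Serinc3, Csf2, Irf4, Ccl7, Ifnb1 and Rsad2 did not. All were picked by their calls at 3 hr, which favours a large difference at that time.

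**Figure D5:**
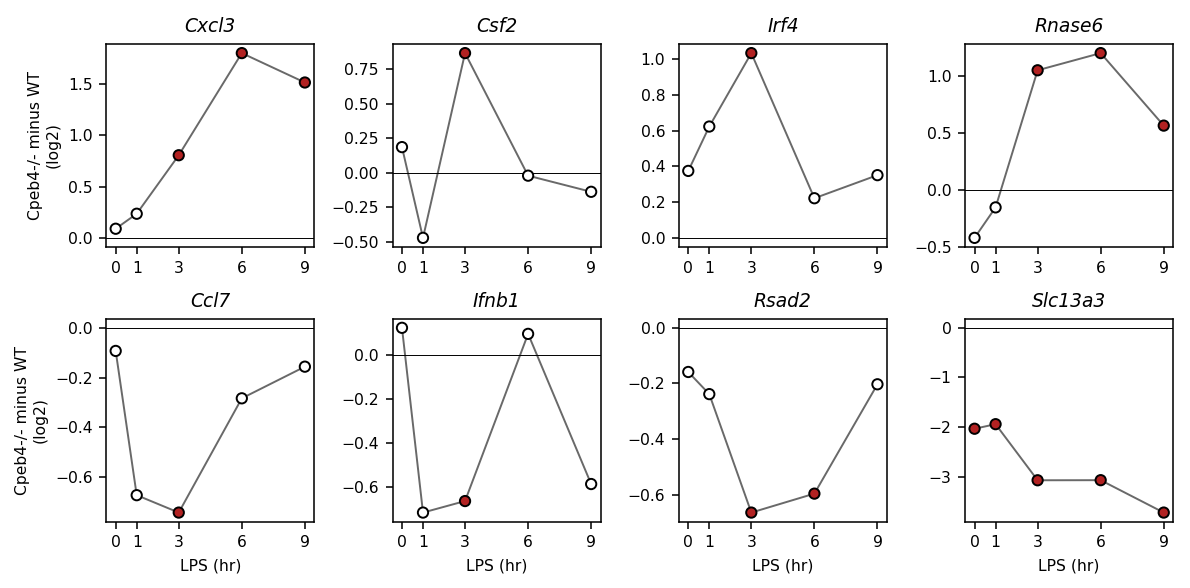
Difference between Cpeb4-/- and WT (y axis, log2; scales differ between panels) at 0, 1, 3, 6 and 9 hr of LPS (x axis) for 8 genes, with filled points where the adjusted p is under 0.05. Csf2 and Irf4, picked by their calls at 3 hr, have their largest value there (0.87 and 1.03). Cxcl3 goes on to 1.80 at 6 hr, and Slc13a3 lies between −3.73 and −1.94 throughout.

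The change of the genotype difference was tested directly. From 0 to 3 hr it passed the threshold for 27 of 13103 genes (0.206%), 10 upward and 17 downward, and for 72 with the mouse as replicate block. Cdkn1b went from 10.82 ± 0.06 (SD, n = 4) to 11.46 ± 0.05 in Cpeb4-/- but from 10.85 ± 0.06 to 11.02 ± 0.06 in WT, a change of the difference by 0.47 (SE 0.07, limma adjusted p = 0.00041). Rnase6, an antimicrobial ribonuclease, went from 8.10 ± 0.15 to 8.82 ± 0.34 in Cpeb4-/- and from 8.52 ± 0.14 to 7.77 ± 0.19 in WT (change 1.47, SE 0.22, limma adjusted p = 0.00054), so the means moved in opposite directions. Apold1 went from 4.50 to 3.75 in Cpeb4-/- and from 4.03 to 4.81 in WT (change −1.53). Casp4, the sensor of cytosolic LPS, was 0.81 higher in Cpeb4-/- before LPS and 0.15 higher at 3 hr (change −0.66, SE 0.10, limma adjusted p = 0.00090), and Ptpn1 changed by −0.33.

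From 3 to 6 hr the difference changed for 121 genes (0.923%), 64 upward and 57 downward, and for 392 with the replicate block. Irf2bp2, a corepressor, went from 9.12 ± 0.06 at 3 hr to 11.09 ± 0.17 at 6 hr in Cpeb4-/- and from 8.98 ± 0.06 to 10.23 ± 0.16 in WT, a change of 0.70 (SE 0.10, limma adjusted p = 9.3e-05). Icam1, an adhesion molecule of leukocytes, went from 16.05 ± 0.08 to 14.58 ± 0.11 in Cpeb4-/- and from 16.12 ± 0.08 to 15.17 ± 0.07 in WT (change −0.52, SE 0.08, limma adjusted p = 0.00022). At 3 hr itself its genotypes overlapped, with a difference of −0.07. Fam234b changed by 0.84, Bmt2, an inhibitor of mTORC1, by −0.71, and Klra1 by 1.95, the last as the WT mean went from 3.89 to 2.16.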

How the data were processed

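Poly(A) RNA of BMDMs was sequenced in 40 libraries. The authors aligned reads with STAR 2.3.0e to mm10, counted them with featureCounts and applied the rlog of DESeq2, per the labels and the study's methods. The deposited values are thus log2 values normalised for library size, with 0 value columns left unused. They hold no counts, so depth per library was not analysed here; the median SE of a difference was 0.083.

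The 3 hr comparison used limma 3.58.1 under R 4.3.3, with lmFit and a trended eBayes. Genes entered it if their rlog averaged log2 of 5 or more, p-values were Benjamini-Hochberg adjusted and the threshold was 0.05. Changes between times were tested as interactions over 40 libraries. Each mouse gave all 5 times, from the labels. To compare mice, the mean of each genotype and time was first subtracted from the values of its libraries. On these deviations, the 3 hr library of a mouse had a median r of 0.25 with its libraries of other times (over 0.1 in 25 of 32 pairs). With libraries of other mice of its genotype the median r was −0.09. The subtraction ties this second value to the first, so it is no separate contrast. The fits were tested on simulated data.

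Genes were named by a rule: the CPEB family; the 12 largest rises and falls that were called without overlap, predicted genes apart; up to 4 called genes per list and direction; genes named in the study; and the 5 smallest p of each interaction. The comparison and the gene lists were chosen with earlier results of these data known.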

Additional observations from a re-analysis of the deposited data

Results flagged for a closer look

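In 24 of 288 groups of 4 libraries, 1 library lay far from the other 3 of its genotype by Dixon's criterion at the 95% level, for the 144 named genes. Chance gives about 1 in 20 groups. WT mouse 88 had 8 of these. It was high for Bcl2a1a (7.28, the other WT mice 4.11 to 4.33), Cd80 (7.98), Bub1b (9.81) and Irf2bp2 (9.06), and low for Mapk3 (12.38), Il10 (11.32), Ier3 (11.18) and Fam234b (5.88). WT mouse 87 was low for Plekha7 (3.28, the others 5.76 to 6.16) and for the locus 100505224 (1.96, Entrez_100505224), and high for Pkig (9.33). WT mouse 69 was low for Apold1 (4.36) and Gbp4 (8.43) and high for Flnc (2.34), and WT mouse 25 was high for Zbtb46 (3.83). Among Cpeb4-/- libraries, mouse 3 was low for Apoc2 (8.68), Tnfsf4 (10.08), Il1rn (13.95) and Ier3 (11.32). Mouse 55 was high for Ifit2 (15.11), Apoe (17.16) and P2rx4 (12.88) and low for Bhlhe40 (8.48), and mouse 62 was low for Tlr2 (13.95).

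The genotype difference changed between times, by the interaction test of limma. From 0 to 3 hr it changed by 0.47 for Cdkn1b, 1.47 for Rnase6, −1.53 for Apold1, −0.66 for Casp4 and −0.33 for Ptpn1. From 3 to 6 hr it changed by 0.70 for Irf2bp2, 0.84 for Fam234b, −0.71 for Bmt2, −0.52 for Icam1 and 1.95 for Klra1.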

How the results depend on the processing

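The number of called genes at 3 hr, 481, depended strongly on the fit. It was 167 with no filter on low values, 230 for eBayes without trend, 194 with batch as a covariate, 13 in batch 1 only and 15 in batch 2 only, where each genotype has 2 libraries. It was 1328 with all 40 libraries and no replicate block, and 76 to 2586 with 1 library left out (the highest without WT mouse 88). A floor of 5, robust eBayes and quantile normalization gave 428 to 483. With the mouse as replicate block the counts were 1406 at 3 hr, 72 for the change from 0 to 3 hr and 392 for the change from 3 to 6 hr, against 481, 27 and 121. Leaving out 1 mouse gave 5 to 21 and 19 to 99 for both changes. The cause of these shifts was not tested.

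No called gene named here changed direction under any alternative. Small differences that missed the threshold did: Cpeb1 was −0.025 under quantile normalization, −0.094 in batch 1 only and −0.082 to 0.088 with 1 library left out. Il1rn was 0.047 under quantile normalization, 0.12 in batch 2 only and −0.0502 to 0.0499 with 1 library left out. Zfp36 was −0.028 in batch 2 only and −0.0055 to 0.076 with 1 library left out, Txnip 0.00498 in batch 2 only, and Ier3 0.026 under quantile normalization, 0.041 in batch 1 only and −0.094 to 0.044 with 1 library left out. Counts per library were not analysed here, so the error of weakly expressed genes rests on the spread between libraries.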
